A study of Lotus japonicus with 10 samples.

Results

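The MADS, YABBY and LEAFY names are a set of developmental regulators on a 1-colour Agilent array of Lotus japonicus genes. They were taken as every non-control probe whose name on the array starts with Lj and contains MADS, YABBY, LEAFY or LFY, which gave 199 of 5716 probes and 109 of 3148 names. Of these, 181 probes carry 98 MADS names, 12 probes carry 7 YABBY names and 6 probes carry 4 LEAFY names. Most names (90) have 2 probes and 19 have 1. Of the names, 15 end in "est", an ending not explained in the sources used here, and with that ending ignored 94 names remain. The names are the array design's own, and 0 of the 109 matched a symbol among the 40429 genes of the reference table, so no known role can be given to a single numbered member.

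Total RNA from mature leaves of Lotus japonicus MG20, an accession of a model legume grown in a glasshouse, was labelled with Cy3 and hybridised to 10 arrays. The study followed gene expression in leaves over a time course of elicitation with glutathione (GSH), a thiol tripeptide. Unelicited leaves, given a time of 0 h, make up 4 arrays, leaves kept in GSH for 3 h make up 3 arrays, and leaves kept in GSH for 6 h make up 3 arrays. All leaves are of the same MG20 background. The GSH leaves had been cut from the plant, placed under a 10 mM GSH solution and shaken at 200 rpm and 28 °C. Leaves shaken without GSH are not analysed here, so GSH cannot be told apart from cutting, submersion, shaking, warmth or the time elapsed. The labels call the arrays of a group biological replicates and say no more about plants or leaves, so p-values measure the spread between these samples. In whole leaves, fewer cells that express a gene and less RNA per cell cannot be told apart.

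MADS-box proteins are transcription factors that bind DNA as dimers or larger complexes. In Arabidopsis, members of the family set the identity of floral organs and the time of flowering, and others act in roots, fruits and seeds. YABBY proteins carry a C2C2 zinc finger and a YABBY domain, and in Arabidopsis they are expressed on the lower (abaxial) side of young lateral organs and promote blade growth. LEAFY is a transcription factor, encoded by a very small gene family in most plants, which in Arabidopsis turns new meristems into flowers. In the legumes pea and Medicago truncatula, the LEAFY homologue also acts in the making of the compound leaf.

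Across each array, between 46.3% and 66.6% of all non-control probes were well above background by the scanner software's own test, and no spot was saturated (0 spots). Levels below are log2 of the processed spot signal minus the 75th percentile of the array's non-control probes, so a level of 0 is the 75th percentile and a difference of 1 stands for a factor of 2 in signal. Unelicited replicates 1 and 2 were on slide 1 (scan 1), and the other 8 arrays, unelicited replicates 3 and 4 among them, were on slide 2 (scan 2). Over the probes that were later tested, arrays of a group correlated at 0.827 to 0.978 in unelicited leaves, at 0.978 to 0.986 at 3 h and at 0.960 to 0.979 at 6 h. Name patterns for leaf photosynthesis genes and for root and nodule genes met 0 names on the array, so the leaf label could not be checked against markers.

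Most of the regulators were not measurable in these leaves. Of the 199 probes, 127 (63.8%) were well above background on no array, against 1506 of all 5716 probes (26.3%). These 127 probes cover 59 names that have no other measured probe, together with the dim second probes of other names. Among MADS probes 120 of 181 (66.3%) were never above background, among LEAFY probes 5 of 6 (83.3%), and among YABBY probes 2 of 12 (16.7%). The 2 YABBY probes are those of LjZF-C2C2-YABBY5. A probe that is not well above background has only an upper bound, so its transcript may still be present at a lower level.

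The number of member probes above background differed between arrays. In unelicited leaves it was 60 and 47 probes on the slide 1 arrays and 42 and 37 on the slide 2 arrays, at 3 h it was 31, 36 and 26, and at 6 h it was 41, 34 and 29. Counts on the slide 1 arrays exceeded those on every slide 2 array. Within slide 2 the unelicited and 6 h arrays overlapped, and the 3 h arrays were below both unelicited arrays. The share of all probes above background was also highest on slide 1, at 66.6% and 59.8%, and was 46.3% to 53.6% on GSH arrays, against 55.4% and 56.6% on the unelicited arrays of slide 2. Its part in these counts was not tested. Above background on every array of a group were 34 member probes in unelicited leaves, 25 at 3 h and 27 at 6 h.

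**Figure D1:**
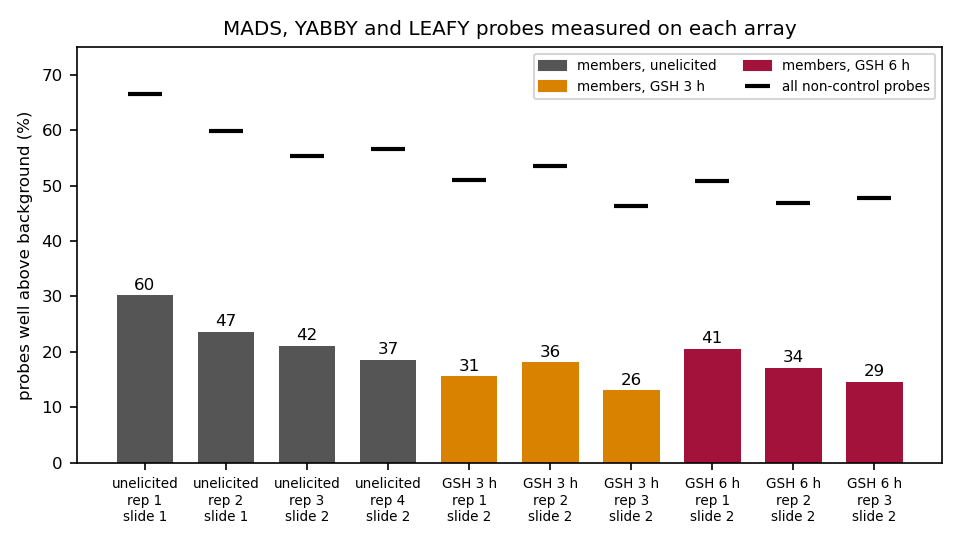
Share of the 199 MADS, YABBY and LEAFY probes well above background on each array (bars, in percent, with the number of probes printed above) and the share of all 5716 non-control probes on the same array (black lines). Bars run from 26 probes on GSH 3 h replicate 3 to 60 on unelicited replicate 1, and every bar lies below its line.

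LEAFY was close to undetected. LjLEAFY1, LjLEAFY1_est and LjLEAFY2_est were above background on no array. The first probe of LjLEAFY2 was above background on a single array, GSH 6 h replicate 1, at a log2 signal of −4.43. On the other arrays it lay between −7.24 and −5.11, and its second probe was above background nowhere. No LEAFY probe could be tested.

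A further 36 probes were above background on some arrays but on all arrays of no group, and were not tested. Of these, 16 were seen on 1 array, 17 only on unelicited arrays of slide 1, and 6 only on GSH arrays. LjMADS10 is an example of the slide 1 pattern on its first probe: every GSH array was at −6.10 or lower, against −6.05 and −7.29 for the unelicited arrays of slide 2 and −2.37 and −3.11 for those of slide 1. The first probe of LjMADS11 likewise had −2.77 and −3.22 on slide 1, against −4.85 and −5.66 in unelicited leaves on slide 2. The second probes of both names were above background on no array. Both first probes therefore differ between slides within unelicited leaves, and no change with GSH is read from them. LjMADS9 was seen on 7 of 10 arrays by each of its probes, and LjMADS9_est on 6, without being complete in any group. The level of its first probe lay between −4.76 and −3.26 in unelicited leaves, between −4.66 and −3.48 at 3 h and between −3.97 and −2.84 at 6 h, so the groups overlapped.

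The tests covered 36 member probes for 24 names: 28 MADS probes of 18 names and 8 YABBY probes of 6 names. These are 18.1% of the member probes, against 57.9% of all probes. Only 22 of the 36 were above background on all 10 arrays. Another 8, for 7 names, were complete only in unelicited leaves, and 2, both of LjMADS47, were complete only in GSH leaves. Of those 8, the MADS probes are both of LjMADS43, the first of LjMADS14 and the second of LjMADS16. Probes that entered through some groups only were likely to differ, so the counts below describe the tested probes and not the families. Of the 8, 8 were called lower at 3 h and 7 at 6 h. The tested probes also differed between slides within unelicited leaves: slide 2 minus slide 1 had a median of −0.62 and ran from −4.16 to 1.31, with 20 of 36 over 1 in size, while the median over all tested probes was −0.01. Values within slide 2 are therefore given beside many of the fold changes, and the plot of slide 2 against all arrays shows every tested probe. Slide 1 holds unelicited arrays only, so a fit with the slide as a fixed block gives the same differences as slide 2 alone.

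After 3 h in GSH, 10 of the 36 tested probes were higher than in unelicited leaves, 18 were lower and 8 did not pass (limma, Benjamini-Hochberg adjusted p under 0.05 over all tested probes). The called share was 77.8%, against 74.2% of all 3309 probes with an estimate. Called higher were 27.8% of the members against 37.5% of all probes, and called lower were 18 of 36 members against 36.7% of all probes. The median log2 fold change was −1.44 for members and −0.05 for all probes, or −0.58 and 0.00 on slide 2 alone, where 11 members were higher and 16 lower. Of all 3307 probes with an estimate on slide 2 alone, 1319 were higher and 1262 lower. By name, 7 names had a higher probe, 12 a lower probe and 5 neither. Of all 2006 names, 773 had only higher calls, 784 only lower calls, 8 both and 441 neither. Among the 22 probes measured on every array, 8 were higher, 7 lower and 7 not called at 3 h, and of all 2114 probes tested under that filter 953 were higher and 546 lower.

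After 6 h, 8 probes were higher, 17 lower and 11 did not pass, a called share of 69.4% against 75.9% of all probes. Called higher were 22.2% of members against 37.5% of all probes, and called lower 47.2% against 38.4%. The members' median was −1.17 and that of all probes −0.07, or −0.32 and −0.02 on slide 2 alone, where 8 members were higher and 14 lower. Of all 3307 probes on slide 2 alone, 1308 were higher and 1309 lower. Both comparisons use the same unelicited arrays. Directions also depend on the scaling: with the 75th percentile taken over probes above background on every array, the median of all probes was −1.11 in place of −0.05 at 3 h and −1.13 in place of −0.07 at 6 h, and the members split into 6 higher and 23 lower at each time. All 3309 probes then split into 801 higher and 1660 lower at 3 h and 835 and 1680 at 6 h. With quantile normalization the members' split was 11 higher and 13 lower at 3 h and 8 and 14 at 6 h, beside 1112 and 1194 of all probes at 3 h and 1105 and 1277 at 6 h. With normexp background correction it was 10 and 6 at 3 h and 7 and 9 at 6 h, beside 1015 and 588 of all probes at 3 h and 1026 and 798 at 6 h.

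**Figure D2:**
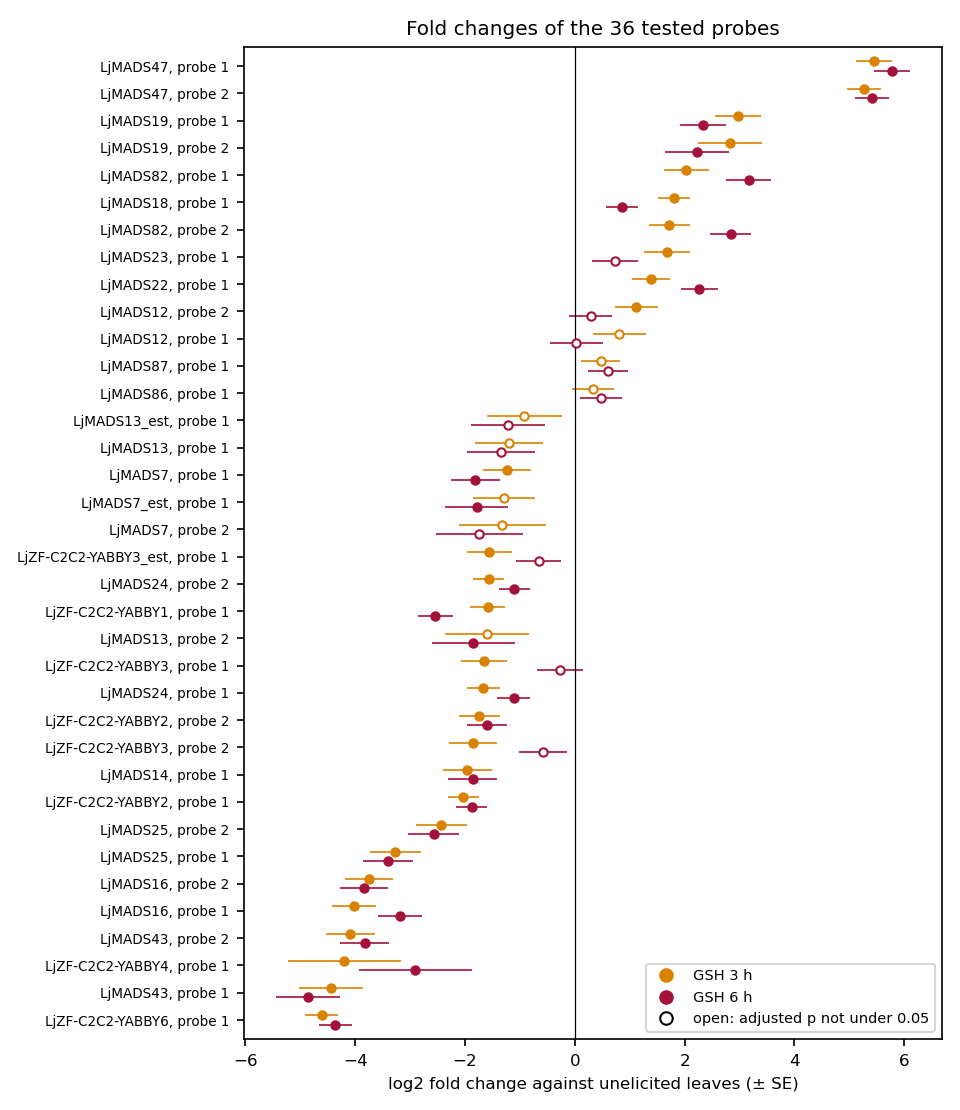
Log2 fold change against unelicited leaves of the 36 tested probes (points, with the standard error of the fit as bars), with GSH 3 h above GSH 6 h in each row. Filled points passed an adjusted p of 0.05 and open points did not. LjMADS47 lies at the top, from 5.27 to 5.78, and all 8 YABBY probes lie below 0, down to −4.61 for LjZF-C2C2-YABBY6.

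The YABBY names were the family most often measured, with 8 tested probes for 6 names. Of these, 4 (LjZF-C2C2-YABBY1, LjZF-C2C2-YABBY4, LjZF-C2C2-YABBY6 and the second probe of LjZF-C2C2-YABBY3) were tested only because every unelicited array had them above background, so their direction was largely fixed by the filter and the counts are a description. At 3 h all 8 were lower (median −1.80, from −4.61 to −1.56), where 36.7% of all probes were. At 6 h 5 probes were lower and 3 did not pass (median −1.74, from −4.36 to −0.27), and 38.4% of all probes were lower. Within slide 2, 7 of the 8 probes were lower at 3 h and 4 at 6 h, beside 38.2% and 39.6% of all probes. Of the 8 probes, 6 were not above background on every 3 h array, although they were on every unelicited array. With normexp background correction LjZF-C2C2-YABBY1 and the 3 probes of the LjZF-C2C2-YABBY3 names lay at 0.19 to 0.36 at 3 h, above 0, without passing. Only the 2 probes of LjZF-C2C2-YABBY2 were above background on all 10 arrays.

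LjZF-C2C2-YABBY2 had log2 signals of 0.68, 0.66, 0.24 and 0.66 in unelicited leaves, −0.92, −1.62 and −1.87 at 3 h, and −1.41, −1.33 and −1.23 at 6 h on its first probe. Every GSH array lay below every unelicited array. The probe fell by 2.03 at 3 h (SE 0.28, adjusted p = 9.33e-05) and by 1.88 at 6 h (SE 0.28, adjusted p = 0.000153). Within slide 2 the differences were −1.92 and −1.77. Its second probe had −1.40, −2.20 and −2.40 at 3 h, against 0.33, 0.11, −0.52 and −0.96 in unelicited leaves, and also did not overlap. That probe differed by −1.74 at 3 h and −1.60 at 6 h, and both differences passed. Its 3 h call was lost with normexp background correction (−0.87, adjusted p = 0.0942).

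LjZF-C2C2-YABBY6, with 1 tested probe, had −1.52, −1.62, −2.25 and −1.42 in unelicited leaves, −6.67, −6.26 and −6.01 at 3 h, and −6.37, −6.05 and −5.78 at 6 h. It was above background on no GSH array and on all 4 unelicited arrays, on both slides. The fitted differences were −4.61 at 3 h (adjusted p = 4.33e-07) and −4.36 at 6 h (adjusted p = 5.81e-07). Its level in GSH is only a bound: at least 7.66-fold lower at 3 h and at least 6.02-fold lower at 6 h. Such bounds set the unelicited mean against, on each GSH array, the higher of the probe's own signal and the lowest signal of any probe above background. No bound was tested, and each adjusted p-value belongs to a fitted difference. The slide made little difference here, with fitted differences of −4.61 over all arrays and −4.48 on slide 2 alone at 3 h. With normexp background correction the differences were −0.65 at 3 h and −1.19 at 6 h and neither passed.

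LjZF-C2C2-YABBY1 had −2.79, −3.09, −3.68 and −3.08 in unelicited leaves, −4.23, −4.93 and −5.10 at 3 h, and −5.60, −6.0 and −5.51 at 6 h. Its 3 groups did not overlap, and it was above background on 2 arrays at 3 h and on none at 6 h. It fell by 1.59 at 3 h (SE 0.32, adjusted p = 0.00110). At 6 h the fitted difference was −2.54 (adjusted p = 3.89e-05), with a bound of at least 2.19-fold lower. At 3 h the call was lost with quantile normalization (−0.62, adjusted p = 0.0833). Neither call held with normexp background correction, where the 3 h difference was 0.25, above 0, and the 6 h difference was −0.37. The second probe of this name was above background on 1 unelicited array only.

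LjZF-C2C2-YABBY3 was lower at 3 h and did not pass at 6 h. Its first probe had −2.46, −2.68, −3.40 and −2.49 in unelicited leaves, −5.25, −4.17 and −3.85 at 3 h, and −3.33, −2.41 and −3.34 at 6 h. The 3 h arrays lay below all unelicited arrays, and the 6 h arrays overlapped them. The fall of 1.66 at 3 h passed (SE 0.42, adjusted p = 0.00434), and the difference of −0.27 at 6 h did not (SE 0.42, adjusted p = 0.570). This probe was above background on 1 of the 3 arrays at 3 h, as were the second probe and that of LjZF-C2C2-YABBY3_est, so the fall is set against arrays where it was mostly not measured. Its 3 h difference was 0.23, above 0, with normexp background correction. The second probe (−1.86 at 3 h, −0.58 at 6 h) and LjZF-C2C2-YABBY3_est (−1.56 and −0.66) gave the same pattern of calls, although without GSH 6 h replicate 2 LjZF-C2C2-YABBY3_est passed at 6 h (−1.16, adjusted p = 0.0128). With scaling on probes above background on every array all 3 probes were called lower at 6 h, at −1.33 to −1.73. With quantile normalization none of the 3 passed at 3 h (−0.78, −0.93 and −0.66). Whether the YABBY3 names share a target is not given in the sources used here, and they are not counted as independent.

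Of the tested probes, that of LjZF-C2C2-YABBY4 differed most between the slides within unelicited leaves, by −4.16 for slide 2 minus slide 1. Its first probe had −0.22 and −0.30 on the unelicited arrays of slide 1 and −4.42 on unelicited replicate 4, while the spot of unelicited replicate 3 was left out as an outlier. At 3 h it had −6.26, −5.40 and −5.89, and at 6 h −3.97, −5.64 and −4.06, so the 6 h arrays overlap with unelicited replicate 4. Over all arrays it differed by −4.20 at 3 h (SE 1.03, adjusted p = 0.00466) and by −2.91 at 6 h (SE 1.03, adjusted p = 0.0277). The unelicited mean joins the slide 1 arrays with the far lower replicate 4, so no bound is read from it. On slide 2 alone, with 1 unelicited array, the differences were −1.43 (adjusted p = 0.0860) and −0.13 (adjusted p = 0.863). The 6 h call was also lost without unelicited replicate 1 (−2.19), without unelicited replicate 2 (−2.23) and without GSH 6 h replicate 2 (−2.37). Quantile normalization, the slide as a fixed or random block and a fit of only the 2 groups compared ended the 6 h call as well. Neither time passed with normexp background correction (−0.90 and −1.21). The second probe was above background on 2 unelicited arrays.

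**Figure D3:**
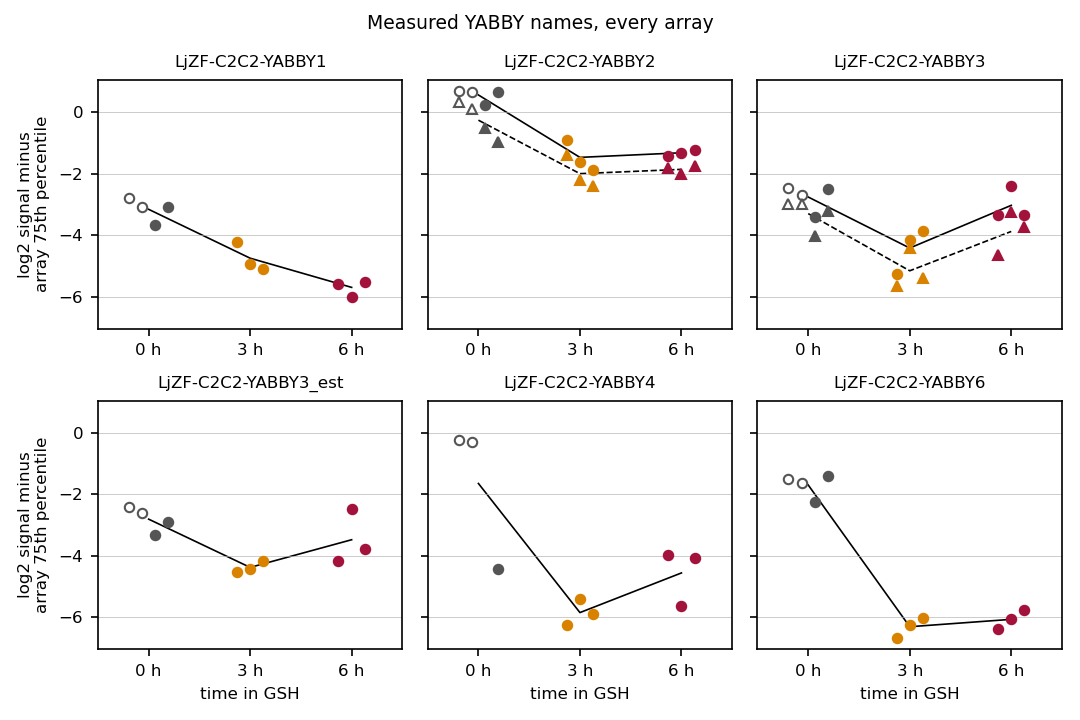
Log2 signal of the 6 measured YABBY names on every array, at 0 h (unelicited), 3 h and 6 h in GSH. Circles and triangles are the first and second probe, lines join group means (solid for the first probe, dashed for the second), and open symbols are unelicited arrays on slide 1. LjZF-C2C2-YABBY6 lies between −6.67 and −5.78 in GSH, and LjZF-C2C2-YABBY4 has slide 1 arrays near 0 and a slide 2 array at −4.42.

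MADS names moved in both directions. At 3 h 10 of 28 probes were higher, 10 lower and 8 not called (median −1.06), so 35.7% were higher and 35.7% lower, near the 37.5% and 36.7% of all probes. At 6 h 8 were higher, 12 lower and 8 not called (median −1.11), so 28.6% were higher and 42.9% lower, beside 37.5% and 38.4% of all probes. By name, 7 of 18 were higher and 6 lower at 3 h, and 5 higher and 8 lower at 6 h. Of all 2006 names, 773 were higher and 784 lower at 3 h, and 772 and 816 at 6 h. Among the 12 names of either family with 2 tested probes, the probes had the same sign for 12 of 12 at each time, both passed the same way for 9 at 3 h and 8 at 6 h, and 0 were called in opposite ways. The median size of the difference between their fold changes was 0.28 at 3 h and 0.32 at 6 h.

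LjMADS47 was measured only in GSH leaves. Its first probe had −7.89, −7.06, −6.89 and −7.11 in unelicited leaves, −1.48, −1.90 and −1.98 at 3 h, and −1.06, −1.37 and −1.95 at 6 h. It was above background on all 6 GSH arrays and on none of the unelicited arrays, on either slide. The fitted differences of this probe were 5.45 at 3 h (adjusted p = 2.81e-07) and 5.78 at 6 h (adjusted p = 1.63e-07). Its bounds were at least 10.0-fold higher at 3 h and at least 12.6-fold higher at 6 h. The name was tested only because every GSH array had it above background, so its direction was largely fixed by the filter. On the second probe the bounds were 8.36-fold at 3 h and 9.32-fold at 6 h. Every alternative tried kept these calls, with fitted log2 differences on the first probe of 2.08 to 5.57 at 3 h and 1.94 to 6.02 at 6 h, although a filter for probes measured on every array leaves this name out.

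LjMADS19 was well measured in every group and higher in GSH. Its first probe had 1.55, 1.32, 0.14 and −0.01 in unelicited leaves, 3.80, 3.66 and 3.71 at 3 h, and 3.38, 3.25 and 2.66 at 6 h. Every GSH array exceeded every unelicited array, and the lower pair of unelicited arrays is the pair on slide 2. It rose by 2.97 at 3 h (SE 0.42, adjusted p = 9.15e-05) and by 2.34 at 6 h (SE 0.42, adjusted p = 0.000462). The rises were larger within slide 2, at 3.66 and 3.03. The second probe rose by 2.83 at 3 h and by 2.22 at 6 h, although its 6 h value did not pass when scaled on probes above background on every array (1.15, adjusted p = 0.120).

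LjMADS82 and LjMADS22 had their highest group mean at 6 h. The first probe of LjMADS82 had −3.17, −3.30, −2.18 and −2.11 in unelicited leaves, −0.58, −0.63 and −0.78 at 3 h, and −0.24, 1.04 and 0.65 at 6 h. Its 3 groups did not overlap. It rose by 2.03 at 3 h (SE 0.41, adjusted p = 0.00113) and by 3.17 at 6 h (SE 0.41, adjusted p = 4.69e-05), and within slide 2 the rises were 1.48 and 2.62. The second probe rose by 1.72 at 3 h and by 2.84 at 6 h, although its 3 h value did not pass when scaled on probes above background on every array (0.66). LjMADS22 had −0.43, −0.92, −1.06 and −1.51 in unelicited leaves, 0.71, 0.19 and 0.32 at 3 h, and 1.88, 1.03 and 0.97 at 6 h, again with no overlap. Its rise was 1.39 at 3 h (SE 0.34, adjusted p = 0.00402; 0.32 and not passing when scaled on probes above background on every array) and 2.27 at 6 h (SE 0.34, adjusted p = 0.000149).

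LjMADS18, LjMADS23 and LjMADS12 had their highest group mean at 3 h. The second probe of LjMADS18 was above background on no array, so its values are those of 1 probe. The first probe of LjMADS18 had 0.22, 0.02, −0.02 and 0.74 in unelicited leaves, 2.19, 1.84 and 2.14 at 3 h, and 1.23, 0.68 and 1.39 at 6 h. The 3 h arrays lay above all others, and 1 of the 6 h arrays lay within the unelicited range. It rose by 1.81 at 3 h (SE 0.29, adjusted p = 0.000257). At 6 h the difference of 0.86 passed (SE 0.29, adjusted p = 0.0208) but turned to −0.20 when scaled on probes above background on every array, and it did not pass on slide 2 alone (0.74), with normexp background correction (0.78) or without unelicited replicate 2 (0.79), GSH 6 h replicate 1 (0.80) or GSH 6 h replicate 3 (0.72). Quantile normalization also ended the 6 h call.

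LjMADS23 had −1.18, −1.10, −0.22 and 0.14 in unelicited leaves, 1.27, 0.73 and 1.28 at 3 h, and 0.34, 0.63 and −0.56 at 6 h on its first probe. The 3 h arrays lay above all unelicited arrays, and the 6 h arrays overlapped them. The rise of 1.68 at 3 h passed (SE 0.42, adjusted p = 0.00406; 1.13 on slide 2 alone), except when scaled on probes above background on every array (0.62). The difference of 0.73 at 6 h did not pass (adjusted p = 0.135), although it did without GSH 6 h replicate 3 (1.07, adjusted p = 0.0470). Its second probe was not tested and was above background on 0 unelicited arrays, 1 array at 3 h and 2 at 6 h. For LjMADS12 the second probe was called at 3 h (1.12, SE 0.39, adjusted p = 0.0249) and the first was not (0.81, SE 0.48, adjusted p = 0.151), and on slide 2 alone both passed (1.65 and 1.58). The call of the second probe was lost without unelicited replicate 3 (0.88), unelicited replicate 4 (1.01), GSH 3 h replicate 1 (0.91) or GSH 3 h replicate 3 (1.03), and when scaled on probes above background on every array (0.06). A replicate block also ended it.

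**Figure D4:**
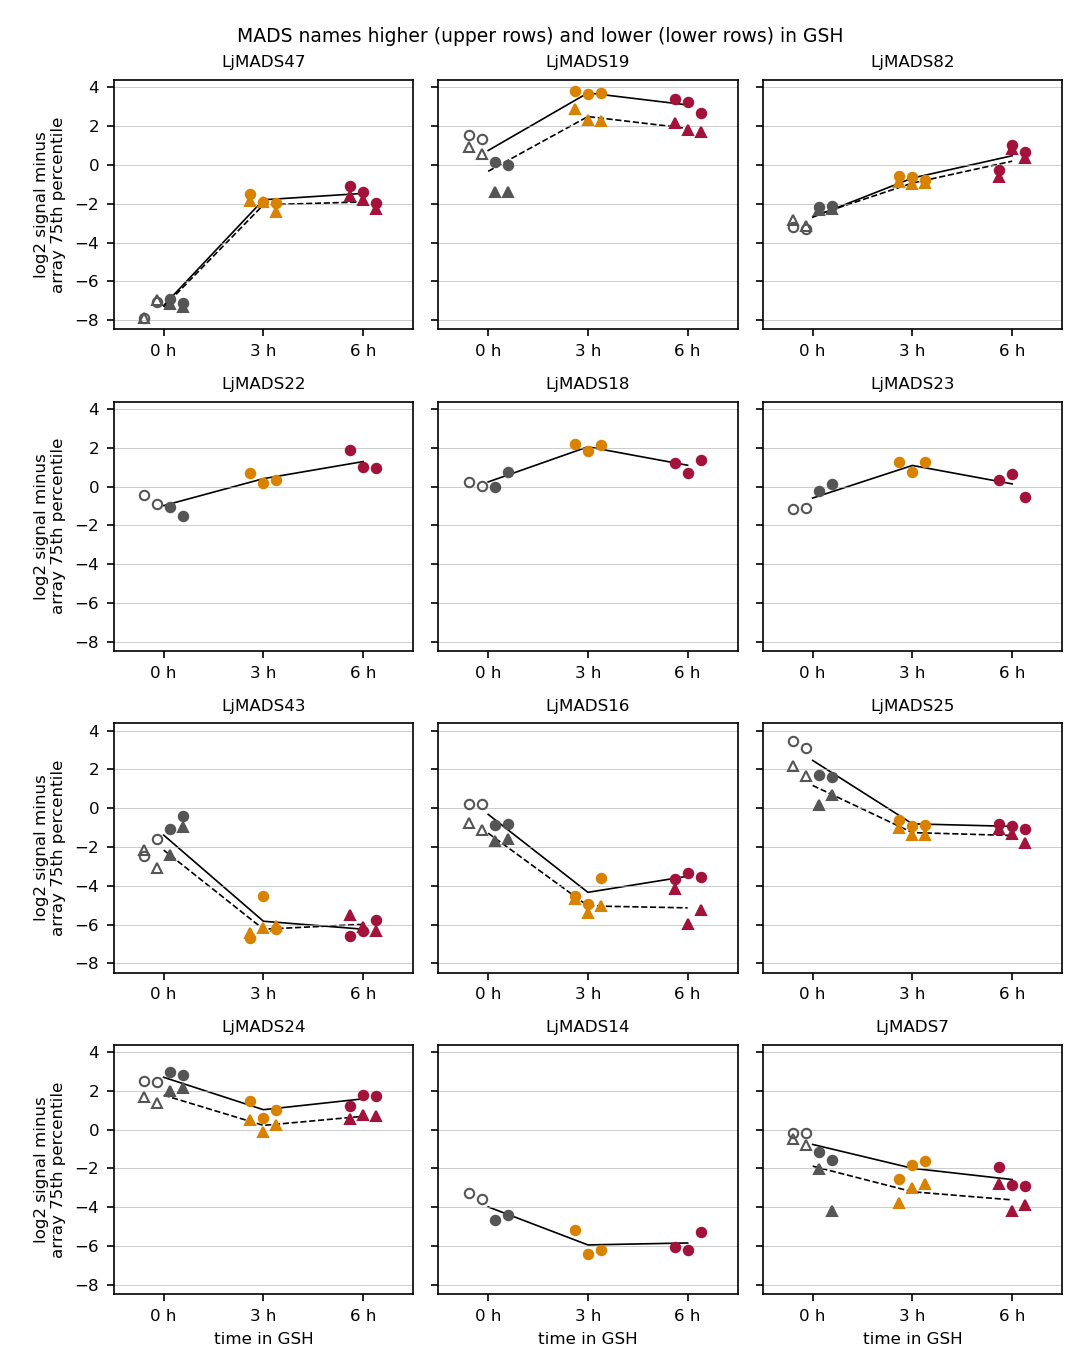
Log2 signal of 12 MADS names on every array, at 0 h (unelicited), 3 h and 6 h in GSH, with names higher in GSH in the upper 2 rows and names lower in GSH in the lower 2 rows. Circles and triangles are the first and second tested probe, lines join group means (solid for the first, dashed for the second), and open symbols are unelicited arrays on slide 1. LjMADS47 lies at −2.41 or higher on every GSH array and at −6.89 or lower on every unelicited array, while the first probe of LjMADS7 has its slide 1 arrays at −0.16 and −0.15 and its slide 2 arrays at −1.16 and −1.57 at 0 h.

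LjMADS43 was above background only in unelicited leaves. Its first probe had −2.47, −1.61, −1.08 and −0.38 in unelicited leaves, −6.69, −4.54 and −6.25 at 3 h, and −6.61, −6.33 and −5.79 at 6 h. It was measured on every unelicited array, on both slides, and on no GSH array. Both probes were tested only because every unelicited array had them above background, so their direction was largely fixed by the filter. The fitted differences of the first probe were −4.44 at 3 h (adjusted p = 6.36e-05) and −4.86 at 6 h (adjusted p = 3.18e-05). The bounds were at least 8.32-fold lower at 3 h and at least 7.51-fold lower at 6 h. The second probe gave bounds of 5.59-fold and 4.40-fold lower. With normexp background correction the 3 h values of both probes (−1.09 and −0.56) and the 6 h value of the second (−1.08) did not pass.

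LjMADS16 had 0.21, 0.19, −0.86 and −0.81 in unelicited leaves, −4.52, −4.92 and −3.59 at 3 h, and −3.64, −3.34 and −3.54 at 6 h on its first probe. The gap between the unelicited and the GSH arrays was wider than the spread within any group, while the 3 h and 6 h arrays overlapped. It fell by 4.02 at 3 h (SE 0.40, adjusted p = 8.69e-06) and fell by 3.19 at 6 h (SE 0.40, adjusted p = 4.28e-05), with differences of −3.51 and −2.67 within slide 2. At 3 h it was above background on 1 of 3 arrays and at 6 h on all 3. The second probe was tested only because every unelicited array had it above background, so its direction was largely fixed by the filter. It differed by −3.75 at 3 h (adjusted p = 2.36e-05), with a bound of at least 9.98-fold lower. At 6 h it differed by −3.84, where 1 of 3 arrays was above background. The second probe did not pass at 3 h with normexp background correction (−0.91).

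LjMADS25 and LjMADS24 were above background on all 10 arrays by both probes. The first probe of LjMADS25 had 3.46, 3.11, 1.69 and 1.58 in unelicited leaves, −0.63, −0.92 and −0.88 at 3 h, and −0.81, −0.93 and −1.07 at 6 h. In unelicited leaves slide 1 gave higher signals than slide 2, and all 4 arrays were above the GSH arrays. It differed by −3.27 at 3 h (SE 0.46, adjusted p = 9.34e-05) and by −3.4 at 6 h (SE 0.46, adjusted p = 6.74e-05), and within slide 2 by −2.45 and −2.57. On the second probe they were −2.43 and −2.57 over all arrays. LjMADS24 had 2.53, 2.46, 2.99 and 2.83 in unelicited leaves, 1.5, 0.61 and 0.99 at 3 h, and 1.22, 1.81 and 1.73 at 6 h. It fell by 1.67 at 3 h (SE 0.30, adjusted p = 0.000538) and by 1.11 at 6 h (SE 0.30, adjusted p = 0.00636), and its second probe differed by −1.57 and −1.10. Every alternative tried kept the calls of LjMADS24 and LjMADS25 at both times on both probes.

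LjMADS14 and LjMADS7 were lower with less margin. LjMADS14 had −3.24, −3.57, −4.68 and −4.42 in unelicited leaves, −5.17, −6.43 and −6.21 at 3 h, and −6.05, −6.18 and −5.28 at 6 h on its tested probe, and was above background on no GSH array. Its GSH arrays lay below all unelicited arrays. This probe was tested only because every unelicited array had it above background, so its direction was largely fixed by the filter. The second probe of LjMADS14 and that of LjMADS14_est were above background only on the 2 unelicited arrays of slide 1, and were not tested. Within unelicited leaves, slide 2 minus slide 1 was −2.51 and −3.49 for these, and −1.15 for the tested probe. The tested probe differed by −1.96 at 3 h (adjusted p = 0.00274) and by −1.86 at 6 h (adjusted p = 0.00361). Over all arrays its bounds came to 1.58-fold lower at 3 h and 1.24-fold lower at 6 h. They rest on an unelicited mean of −3.98, which joins −3.40 on slide 1 with −4.55 on slide 2. The lowest measured signals of the 6 h arrays were −4.56, −4.16 and −4.16, so these bounds are not minimum falls within slide 2. The fitted differences of the tested probe on slide 2 alone were −1.38 at 3 h and −1.29 at 6 h. With normexp background correction its 3 h difference was 0.61, above 0, and its 6 h difference of −0.04 did not pass. With signals floored at the lowest measured level it was −0.66 at 3 h and −0.31 at 6 h, and neither passed. LjMADS7 had −0.16, −0.15, −1.16 and −1.57 in unelicited leaves, −2.53, −1.80 and −1.64 at 3 h, and −1.93, −2.85 and −2.91 at 6 h on its first probe. The GSH arrays did not overlap with the unelicited arrays. This probe fell by 1.23 at 3 h (SE 0.44, adjusted p = 0.0273) and by 1.81 at 6 h (SE 0.44, adjusted p = 0.00369). On slide 2 alone the values were −0.63, which did not pass, and −1.20, which did. The 3 h call was lost too without unelicited replicate 1 (−1.03), unelicited replicate 2 (−1.03) or GSH 3 h replicate 1 (−0.96), and with normexp background correction neither time passed (−0.55 and −1.05). Quantile normalization and the slide as a fixed or random block also ended the 3 h call.

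The second probe of LjMADS7 (−1.32 and −1.74) did not pass at either time, but without unelicited replicate 4 it did at both (−2.09 and −2.51). LjMADS7_est differed by −1.29 at 3 h (adjusted p = 0.0619) and by −1.79 at 6 h (adjusted p = 0.0152). At 3 h it passed without unelicited replicate 3 (−1.5), unelicited replicate 4 (−1.59) or GSH 6 h replicate 1 (−1.29), and at 6 h it did not pass on slide 2 alone (−1.02), with normexp background correction (−0.81) or without GSH 6 h replicate 2 (−1.46) or GSH 6 h replicate 3 (−1.51). Quantile normalization and the slide as a fixed or random block also ended its 6 h call.

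LjMADS13 differed between slides within unelicited leaves. Its second probe had signals of 1.30 and 0.48 for slide 1 and of −1.69 and −2.10 for slide 2 in unelicited leaves, −2.49, −1.78 and −2.04 at 3 h, and −1.67, −2.40 and −2.98 at 6 h. Unelicited arrays of slide 2 lay within the range of the GSH arrays, and those of slide 1 above it. The 6 h difference of −1.85 passed over all arrays (adjusted p = 0.0477) and was −0.46 on slide 2 alone (adjusted p = 0.325). Leaving out unelicited replicate 1 (−1.25), unelicited replicate 2 (−1.52), any 3 h array (−1.85 each), GSH 6 h replicate 2 (−1.83) or GSH 6 h replicate 3 (−1.54) ended that call, as did normexp background correction (−1.24). Quantile normalization, no filter on dim probes, the slide as a fixed or random block and a fit of only the 2 groups compared also ended it. The 3 h difference of this probe (−1.60), both differences of the first probe (−1.20 and −1.34) and both of LjMADS13_est (−0.92 and −1.22) did not pass, although all 5 passed without unelicited replicate 4 (−2.14, −1.71, −1.85, −1.56 and −1.87), and the 3 h one of the second probe also without unelicited replicate 3 (−2.0).

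LjMADS86 and LjMADS87 were not called at either time. LjMADS86 had −2.02, −1.82, −0.38 and −1.10 in unelicited leaves, −1.05, −1.09 and −0.87 at 3 h, and −0.76, −0.82 and −0.97 at 6 h on its tested probe. The GSH arrays lay within the unelicited range. The differences were 0.33 (SE 0.38) and 0.48 (SE 0.38), and for LjMADS87 0.47 (SE 0.36) and 0.60 (SE 0.36). On slide 2 alone they were −0.26 and −0.11 for LjMADS86 and −0.11 and 0.01 for LjMADS87. Without unelicited replicate 3 both passed at 6 h (0.80 and 0.85). The tested probes of both names had near-equal fold changes, and whether they read the same transcript was not tested.

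**Figure D5:**
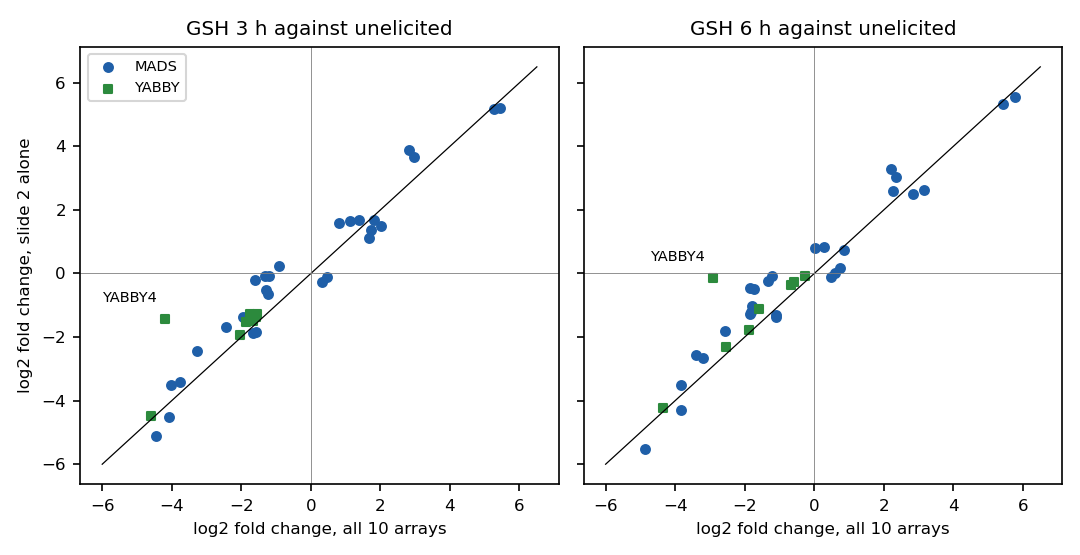
Log2 fold change of the 36 tested probes on slide 2 alone (vertical axis) against all 10 arrays (horizontal axis), at 3 h (left) and 6 h (right), with MADS probes as circles, YABBY probes as squares and a line of equal values. LjZF-C2C2-YABBY4 lies farthest from the line, at −1.43 against −4.20 at 3 h and at −0.13 against −2.91 at 6 h.

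Between 6 h and 3 h in GSH, 0 of the 36 member probes passed, against 5.35% of all probes (3.35% higher and 1.99% lower at 6 h). At an unadjusted p under 0.05 there were 7 of 36, 4 MADS and 3 YABBY probes, beside 724 of all 3309 probes. The members' median difference was 0.11. The sizes ran from −0.96 to 1.40. LjZF-C2C2-YABBY3 had the difference of 1.40 on its first probe (SE 0.45, adjusted p = 0.102), with the 6 h arrays all above the 3 h arrays. LjMADS82 differed by 1.15 (SE 0.44, adjusted p = 0.163) and 1.13 on its 2 probes. LjMADS18 differed by −0.95 (adjusted p = 0.109) and LjZF-C2C2-YABBY1 by −0.95 (adjusted p = 0.138). With the slide as a fixed block all 5 of these probes passed, 3 of them higher and 2 lower at 6 h. Of all 3309 probes, 361 were higher and 299 lower in that fit. The adjusted p was then 0.0462 for LjZF-C2C2-YABBY3, 0.0291 and 0.0421 for the probes of LjMADS82, 0.0403 for LjMADS18 and 0.0483 for LjZF-C2C2-YABBY1. On slide 2 alone only the first probe of LjMADS82 passed (adjusted p = 0.0493), beside 277 higher and 228 lower of all 3309 probes.

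Other families of developmental regulators on the array were counted by name pattern in the same fit, where 37.5% of all probes were higher and 36.7% lower at 3 h, and 37.5% and 38.4% at 6 h. Their probes entered by the same filter and were set against the same unelicited arrays of both slides. These counts too describe the tested probes and not the families. How many entered only through unelicited leaves, and their values within slide 2, are not given here. Of SBP probes, a family known in Arabidopsis for the change from juvenile to adult growth, 2 were higher and 11 lower of 21 tested at 3 h (median −1.43), and 3 and 14 at 6 h (median −1.78). Of TCP probes, known for control of cell division in leaves, 7 were higher and 16 lower of 37 at 3 h (median −0.77), and 4 and 18 at 6 h (median −1.05). Homeodomain names, which include regulators of meristems and leaf form, had 16 higher and 50 lower of 94 at 3 h (median −1.31), and 12 and 54 at 6 h (median −1.48). AP2-like names, which include regulators of floral organs in Arabidopsis, had 3 higher and 11 lower of 17 at 3 h (median −2.43), and 4 and 11 at 6 h (median −2.64). GRAS names, among them regulators of gibberellin signalling and root patterning, were more evenly divided, with 21 higher and 24 lower of 65 at 3 h (median −0.19) and 23 and 25 at 6 h (median 0.30). Between 6 h and 3 h the calls were 0 higher and 1 lower for SBP, 0 and 2 for TCP, 2 and 2 for homeodomain, 1 and 0 for AP2-like and 0 and 0 for GRAS. Patterns for GRF and CONSTANS-like names met 0 names.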

How the data were processed

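Total RNA of 10 leaf samples was measured on 1-colour Agilent arrays, 1 array per sample, and groups were read from the sample titles. The deposited files hold linear spot intensities that the submitters' processing notes credit to Agilent Feature Extraction (version 10.7.3.1). The processed signal is background-subtracted, per the file headers, and is not normalized between arrays. The deposited value table held the same processed signal (100% of cells equal, column medians 14.5 to 65.9), and no test of the authors is given in the sources used here.

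From these, log2 of the processed signal minus each array's 75th percentile (signals of 227.25 to 1022.5) over 5716 non-control probes was computed. Spots marked as outliers (4 to 64 per array) were left out. A probe was tested where all arrays of 1 or more groups had it well above background (3310, of which 3309 had an estimate). A model of group means covering the 10 arrays was fitted with limma's lmFit and eBayes (limma 3.58.1 under R 4.3.3; 3.05 prior degrees of freedom). Tests were two-sided and p-values were adjusted by Benjamini-Hochberg across every tested probe, with calls made at 0.05. Slide and scan, which coincide, came from the file headers. With 3 or 4 arrays in a group, precision is limited by their number. The code was tested on simulated data, and figures were drawn with matplotlib 3.10.9 (Python 3.11.15).

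Alternatives covered normexp (offset 50, on median spot and background signals), scaling, filters, slide, replicate blocks, variance models, outlier spots, the value table, a floor and each array left out. The members and lists were chosen with earlier results of these data known. Named were all YABBY and LEAFY names, 5 names by unelicited signal and, per comparison and direction, up to 6 names by size of called fold change. LjMADS7, LjMADS7_est, LjMADS12, LjMADS13, LjMADS14, LjMADS86 and LjMADS87 fall outside that rule, as do the untested MADS names, and were named after their values were seen. No sequence of a probe, gene or protein was used here.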

Additional observations from a re-analysis of the deposited data

Results flagged for a closer look

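One value among the tested members stood far from the rest of its group. The first probe of LjZF-C2C2-YABBY2 had a log2 signal of 0.24 on unelicited replicate 3, while the other unelicited arrays lay between 0.66 and 0.68, so the gap to the nearest array was 0.95 of the whole range, above Dixon's critical value for 4 samples. The array is on slide 2, as is unelicited replicate 4 at 0.66. This was 1 of 35 groups of 4 examined, and chance alone marks about 1 in 20. The fall of this probe in GSH passed at both times with and without that array.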

How the results depend on the processing

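Of the called fold changes, 12 of 28 at 3 h and 15 of 25 at 6 h kept their direction and passed under every alternative that could be fitted. Normexp background correction left 6 member probes lower at 3 h and 9 at 6 h, and turned the 3 h differences of LjMADS14 (0.61), LjZF-C2C2-YABBY1 (0.25), LjZF-C2C2-YABBY3 (0.23 and 0.36) and LjZF-C2C2-YABBY3_est (0.19) above 0. A filter for probes above background on every array left 22 probes, with 7 lower at 3 h and 9 at 6 h, beside 546 and 581 of all 2114. Without a filter 43 of 199 probes were higher at 6 h, beside 1590 of all 5715, and 1 was lower at 6 h than at 3 h. These 199 include the 127 probes above background on no array. The array medians of those 127 were −7.86 to −6.95 in unelicited leaves and −6.61 to −6.26 at 6 h. Scaling on probes above background on every array left 6 higher at 3 h and put LjMADS18 at −0.20 at 6 h. Between 6 h and 3 h, the slide as a fixed block gave 3 higher and 2 lower, as a random block 3 and 2, and slide 2 alone 1 higher. Of all 3309 probes, the same fits gave 361 and 299, 314 and 250, and 277 and 228. The cause was not tested, except that filters change which probes enter. Over all probes, normexp called 1603 at 3 h in place of 2456 and 19 between the times in place of 177, and the fixed slide block 660 in place of 177.

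Leaving out each array in turn gave 9 to 11 higher and 17 to 23 lower at 3 h, 7 to 10 higher and 15 to 20 lower at 6 h, and 0 between the times. For values called under neither setting, 57 changed sign. Arrays with the same replicate number did not deviate together (correlations of −0.0417 to 0.0574), so no sign of pairing by number was seen. Arrays with different numbers were not compared, so this check cannot exclude pairing. With a replicate block, which leaves unelicited replicate 4 without a partner, 9 were higher and 23 lower at 3 h, 8 and 20 at 6 h, and 0 and 0 between the times. Of all 3309 probes, 1209 were then higher and 1223 lower at 3 h, and 1193 and 1268 at 6 h.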
